A study of Homo sapiens with 24 samples.

Results

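The nuclear glutamine tRNAs of human cells were followed after loss of each of 3 dihydrouridine synthases. They comprised both glutamine anticodon families, Gln-CTG and Gln-TTG, of 74 rows in each anticodon table, and all 11 nuclear glutamine entries of 286 rows in each isodecoder table, chosen by their names alone. Isodecoders are tRNAs that share an anticodon and differ elsewhere in sequence. Of the 11, 7 carried the CTG anticodon and 4 the TTG anticodon. The cells were HEK293T, an established line from human embryonic kidney, and were given no drug. The groups were wild-type cells in 2 sets and 2 clones each of DUS1L KO, DUS2L KO and DUS3L KO cells, with 3 libraries of gel-isolated tRNA per group, 24 in all. E. coli tRNAs had been added as spike-ins. Each clone stands for 1 edited line, and the libraries of a clone are not said to be separate cultures, and the spread behind the p-values may then be technical.

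Glutamine tRNAs are charged by glutaminyl-tRNA synthetase. The CTG anticodon pairs with the codon CAG and the TTG anticodon with CAA. The wobble uridine of Gln-TTG belongs, with those of Glu-TTC and Lys-TTT, to the group that the Elongator complex and a thiolation pathway modify. Dihydrouridine is a reduced, non-planar uridine that loosens base stacking in the tRNA elbow. DUS1L and DUS2L make it in the D loop, whereas DUS3L acts on the variable loop. The tables hold tRNA alone, so neither the cell type nor the loss of the enzymes could be checked in them.

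All 11 entries matched a RefSeq tRNA gene of GRCh38, each 72 bases long, so that levels of different members refer to equal lengths. Gln-CTG-1-1 (chromosome 6, 18836171 to 18836242) stands for 5 RefSeq gene copies, Gln-TTG-3-1 (chromosome 6, 26311196 to 26311267) for 3, and Gln-CTG-3-2 (chromosome 1, 148032790 to 148032861) and Gln-CTG-4-1 (chromosome 1, 148265108 to 148265179) for 2 each. In all, 7 entries lay on chromosome 6, 3 on chromosome 1 and 1 on chromosome 17. Gln-CTG-2-1 (chromosome 6, 27547752 to 27547823) overlapped no GENCODE gene, and Gln-CTG-5-1 (chromosome 6, 27295433 to 27295504) lay in an intron of POM121L2.

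Sequences are shown for the isodecoder that made up most of the Gln-TTG family and for the glutamine isodecoder with the largest fold change in the DUS2L table. Gln-TTG-2-1 lies at chr6:28589379-28589450 on the plus strand, inside exons of the antisense RNA AL049543.1 and of the protein-coding gene ZBED9. It was read from GENCODE 29 transcripts of GRCh38. Of Gln-CTG-7-1, the first 60 bases were read, at chr1:148328812-148328871 on the plus strand, from RefSeq sequence of GRCh38.p14. That gene lies in introns of LINC01138 and AC245100.1. Capitals mark, in order, the D loop, the anticodon and the variable loop.
Gln-TTG-2-1: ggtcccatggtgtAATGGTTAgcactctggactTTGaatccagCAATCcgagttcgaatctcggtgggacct
Gln-CTG-7-1: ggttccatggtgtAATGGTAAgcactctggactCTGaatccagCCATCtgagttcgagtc
Over the 60 bases, 54 were identical. Counted from 1 at the 5′ end of the gene, the differences from Gln-TTG-2-1 to Gln-CTG-7-1 were C4T, T20A, T34C, A45C, C49T and A58G. T20A lies in the D loop, which held 3 thymines (uridines in the RNA) in Gln-TTG-2-1 and 2 in Gln-CTG-7-1. The variable loop held 1 in each. Which of these uridines were dihydrouridine was not measured here.

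The deposited tables hold, for each knockout, the mean of normalised counts over the libraries and each clone's log2 fold change and p-value against wild type. Levels of each group were recovered from these, and ± gives a standard error (SE) worked out from each fold change and p-value. A row passed at an adjusted p under 0.05, from the authors' p-values adjusted by the Benjamini-Hochberg method over the whole table. The summed group levels lay between 509952 and 3105010 normalised counts. These sums depend on how each table was scaled and are not a sequencing depth, which the tables do not give. The recovered wild-type levels of the DUS1L and DUS2L tables had a near-constant ratio, with a median log2 ratio of -1.19 and a range from the 5th to the 95th percentile of -1.22 to -1.16 over 181 isodecoders with a mean of at least 100 in both. Those 2 tables thus share control libraries and differ by a scaling factor. The wild type of the DUS3L table was another, with the same percentiles of the DUS1L ratio at -1.16 and 4.33 over 135 isodecoders. The 3 spike-ins had mean log2 fold changes from -0.46 to 0.18 over the 6 clones, but single spike-ins spread from -0.92 to 0.29 in DUS2L clone #1 and from -1.88 to 0.25 in clone #2, so that reference is uncertain. The median nuclear isodecoder stood at -1.02 and -0.55 in DUS2L clones #1 and #2 and between -0.19 and 0.22 in the other clones.

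In wild-type cells the Gln-CTG family was far more abundant than Gln-TTG. In the DUS1L table the recovered wild-type level was 56263 normalised counts for Gln-CTG and 1143 for Gln-TTG. Gln-CTG ranked 8 and Gln-TTG 40 among 49 nuclear families. Together they held 5.09% of nuclear normalised counts in the DUS1L table, 5.12% in the DUS2L table and 2.89% in the DUS3L table. Gln-TTG made up 1.99% of the glutamine level in the wild type of the DUS1L and DUS2L tables and 4.22% in that of the DUS3L table.

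A single isodecoder held most of each family. Gln-CTG-1-1 made up 70.5% of Gln-CTG in the wild type of the DUS1L table and Gln-TTG-2-1 made up 91.7% of Gln-TTG. The order of recovered wild-type levels in that table was Gln-CTG-1-1 (39680), Gln-CTG-2-1 (10152), Gln-CTG-3-2 (3402), Gln-CTG-4-1 (2344), Gln-TTG-2-1 (1048), Gln-CTG-6-1 (407), Gln-CTG-5-1 (277), Gln-TTG-3-1 (46.0), Gln-TTG-4-1 (42.6), Gln-TTG-1-1 (6.57) and Gln-CTG-7-1 (0.645 normalised counts). In that order Gln-TTG-3-1 and Gln-TTG-4-1 differed by less than their combined SE (0.11 ± 0.71 on the log2 scale), and every other pair of neighbours differed by more. The wild type of the DUS3L table had another order, in which Gln-TTG-2-1 (539 normalised counts) lay between Gln-CTG-2-1 (4150) and Gln-CTG-3-2 (497) and Gln-CTG-7-1 (49.0) lay above Gln-TTG-4-1 (20.9), Gln-TTG-3-1 (10.1) and Gln-TTG-1-1 (5.07). There Gln-TTG-2-1 and Gln-CTG-3-2 differed by less than their SE (0.12 ± 0.46), as did Gln-CTG-4-1 and Gln-CTG-6-1, Gln-CTG-6-1 and Gln-CTG-5-1, and Gln-TTG-3-1 and Gln-TTG-1-1.

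**Figure D1:**
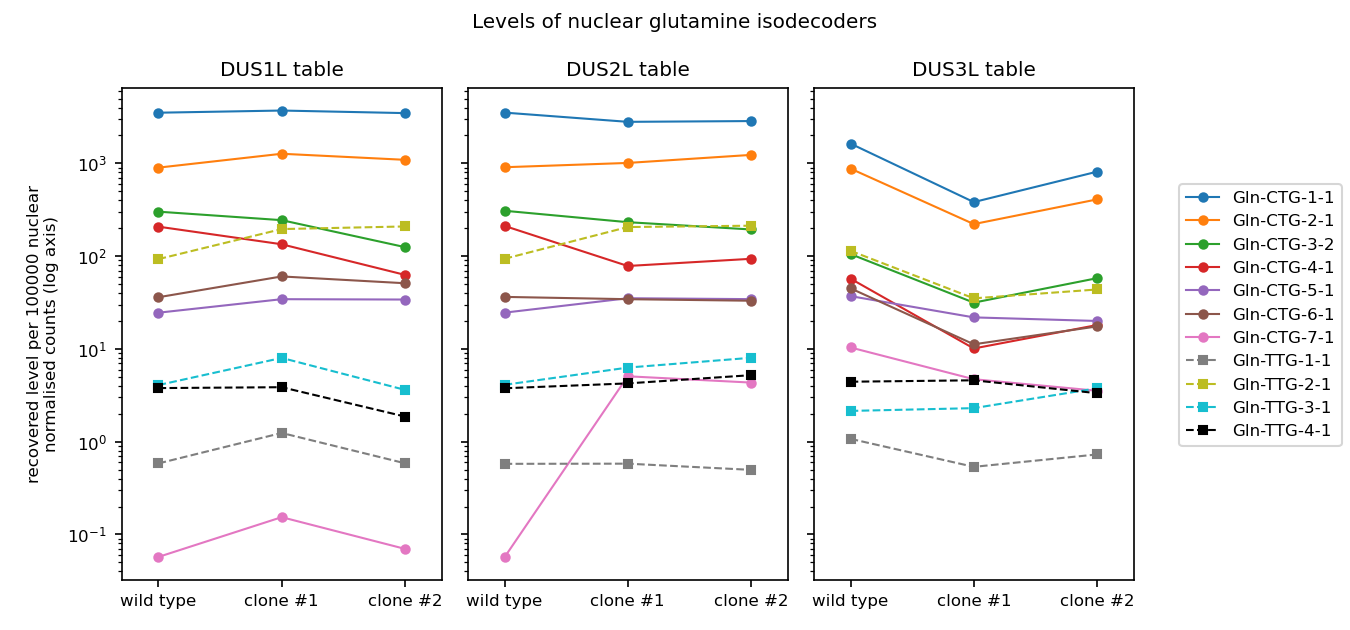
Recovered level of each nuclear glutamine isodecoder per 100000 nuclear normalised counts (log axis) in wild type, clone #1 and clone #2 of each table, with circles for Gln-CTG and squares for Gln-TTG members. Gln-CTG-7-1 lies at 0.0568 in the DUS2L wild type and at 5.07 and 4.34 in the clones, while the wild type of the DUS3L table lies at 10.4.

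At the level of families, Gln-CTG passed in no clone of any knockout, and Gln-TTG was higher in DUS2L clone #2 alone. In the DUS1L table Gln-CTG went from 56263 normalised counts in wild type to 53530 and 40248 in clones #1 and #2. The authors' deposited table gave -0.07 ± 0.47 and -0.48 ± 0.47 as log2 fold change ± SE for these (adjusted p = 0.975 and 0.697, from the authors' p-values). Gln-TTG went from 1143 to 2051 and 1784 normalised counts, with a log2 fold change of 0.84 ± 0.47 and 0.64 ± 0.47 per the authors' deposited table (adjusted p = 0.325 and 0.596). By the authors' p-values with Benjamini-Hochberg adjustment, 0 of these DUS1L families passed while 5.71% of 70 rows passed in clone #1 and 0% in clone #2. Unadjusted, 0 of them lay under 0.05, beside 15.7% and 12.9% of rows.

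In the DUS2L table Gln-CTG went from 128029 normalised counts in wild type to 67152 in clone #1 and 111649 in clone #2. The authors' deposited table gave a log2 fold change of -0.93 ± 0.48 and -0.20 ± 0.48 (adjusted p = 0.0972 and 0.746). Gln-TTG went from 2604 to 3469 and 5682 normalised counts. It rose in clone #2, by 1.13 ± 0.44 on the log2 scale per the authors' deposited table (adjusted p = 0.0291), and stood at 0.41 ± 0.44 in clone #1 (adjusted p = 0.462). Among 71 rows, 8.45% were higher, 26.8% lower and 35.2% either in clone #1, while 16.9% were higher, 25.4% lower and 42.3% either in clone #2. In both clones 8.45% were higher and 18.3% lower. After centring on the median nuclear family of the clone, which stood at -1.10 and -0.45, Gln-TTG passed in both clones, at 1.51 and 1.57. Centring thus raised every row, and the share of rows that passed after it was not counted. With the DUS3L wild type clone #2 stood at 0.37 and did not pass (adjusted p = 0.568). By that reference 4.23% of 71 rows were higher and 14.1% lower in both clones. In the DUS3L table Gln-CTG went from 13076 to 6305 and 12498 normalised counts and Gln-TTG from 576 to 392 and 480. The authors' deposited table gave -1.05 ± 0.46 and -0.07 ± 0.46 for Gln-CTG, with an unadjusted p of 0.0230 in clone #1 that did not pass after adjustment (0.1701; 20.3% of rows lay under 0.05 unadjusted), and -0.56 ± 0.36 and -0.26 ± 0.36 for Gln-TTG. Among 74 rows, 8.11% passed in DUS3L clone #1 and 5.41% in clone #2.

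The ratio of both families does not depend on how a library was scaled. Gln-TTG made up 3.69% and 4.24% of the glutamine level in DUS1L clones #1 and #2 and 4.91% and 4.84% in DUS2L clones #1 and #2, against 1.99% in their shared wild type. In the DUS3L table it made up 4.22% in wild type, 5.85% in clone #1 and 3.70% in clone #2. Both clones of DUS1L and DUS2L thus lay above their shared wild type, and those of DUS3L lay on either side of theirs. The wild type of the DUS3L table, at 4.22%, lay within the range of the DUS1L and DUS2L clones, from 3.69% to 4.91%. On the log2 scale the difference between Gln-TTG and Gln-CTG fold changes was 0.92 ± 0.66 and 1.13 ± 0.66 in the DUS1L clones, 1.34 ± 0.65 in DUS2L clone #1, 1.32 ± 0.65 in DUS2L clone #2 and 0.50 ± 0.59 and -0.20 ± 0.59 in the DUS3L clones. These SEs take the families as independent. The DUS1L and DUS2L values rest on the same wild-type libraries, so they are not independent of each other.

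**Figure D2:**
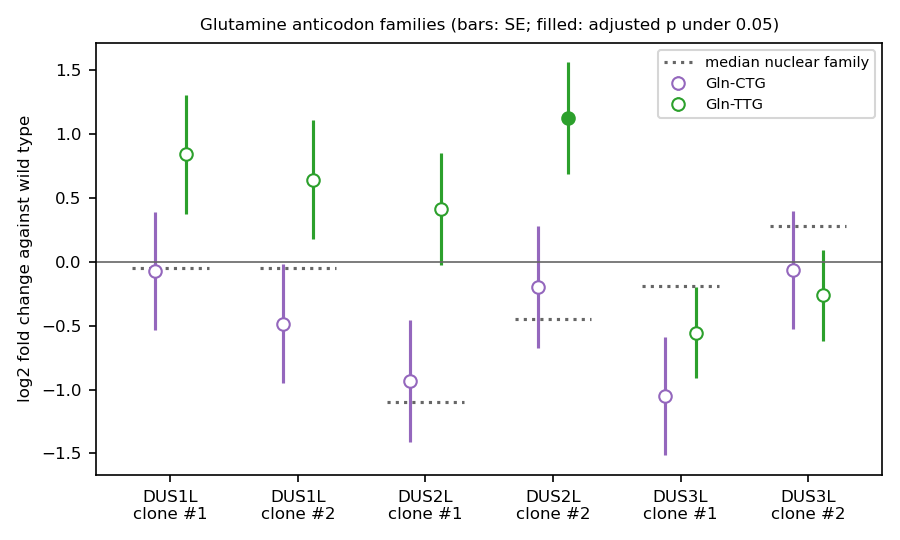
Log2 fold change against wild type of Gln-CTG and Gln-TTG in each of the 6 clones, with bars for the SE and dotted lines for the median nuclear family of the clone. Gln-TTG in DUS2L clone #2, at 1.13, is the filled point that passed, and Gln-TTG lies above Gln-CTG in both clones of DUS1L and DUS2L.

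Among isodecoders, the members that passed in the DUS1L knockouts were 2 Gln-CTG entries of chromosome 1, lower in clone #2. In the authors' DUS1L p-values 0 of 11 glutamine isodecoders passed in clone #1, and 0 had an unadjusted p under 0.05 there, beside 30.2% of all rows unadjusted. After adjustment 15.6% of 275 rows were higher and 5.09% lower (20.7% in all). In clone #2 the 2 lower members stand beside 5.82% of rows that were lower, 2.55% that were higher and 8.36% in all. In both clones 0 members passed, beside 1.45% of rows higher and 2.91% lower (4.36% in all). Gln-TTG-4-1 in clone #2 was the third member with an unadjusted p under 0.05, which 21.8% of all rows had. Gln-CTG-4-1 went from 2344 normalised counts in wild type to 1318 and 521 in clones #1 and #2. Its log2 fold change per the authors' deposited table was -0.83 ± 0.48 (adjusted p = 0.234) and -2.17 ± 0.48 (adjusted p = 0.000520). Gln-CTG-3-2 went from 3402 to 2397 and 1038 normalised counts, or -0.51 ± 0.44 (adjusted p = 0.495) and -1.71 ± 0.44 (adjusted p = 0.00257) per the authors' deposited table. With the wild type of the DUS3L table both calls were lost, at -0.41 for Gln-CTG-4-1 and -0.30 for Gln-CTG-3-2. The most abundant members, Gln-CTG-1-1 and Gln-CTG-2-1, stood at -0.12 ± 0.50 and -0.46 ± 0.50 and at 0.30 ± 0.44 and -0.16 ± 0.44 per the authors' deposited table, without passing. Of the Gln-TTG members, Gln-TTG-2-1 went from 1048 to 1921 and 1734 normalised counts, with a log2 fold change of 0.87 ± 0.47 and 0.73 ± 0.47 per the authors' deposited table (adjusted p = 0.185 and 0.347). Gln-TTG-3-1 stood at 0.77 ± 0.77 and -0.61 ± 0.77 and Gln-TTG-4-1 at -0.17 ± 0.65 and -1.46 ± 0.66 per the authors' deposited table, neither past the threshold. Gln-CTG-5-1 (277, 337 and 283 normalised counts in wild type and the clones), Gln-CTG-6-1 (407, 593 and 424) and Gln-TTG-1-1 (6.57, 12.2 and 4.85) did not pass. Gln-CTG-7-1 lay at 0.645, 1.51 and 0.580 normalised counts in wild type and the clones, too low for a fold. The 9 members with a mean of at least 10 had median log2 fold changes of 0.28 and -0.46 in clones #1 and #2, against 0.19 and -0.18 over 216 nuclear isodecoders.

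In the DUS2L knockouts, Gln-CTG-7-1 was called higher and Gln-CTG-4-1 lower in both clones against the wild type of that table. No minimum mean was applied to these calls, and Gln-CTG-7-1 lay at 1.45 normalised counts in wild type. That is 1 higher and 1 lower of 11 members, where 16.7% of 276 rows were higher and 26.8% lower in both clones (43.5% in all). In clone #1, 1 member was higher and 2 lower, against 16.7% and 37.3% of rows (54% in all). In clone #2, 2 members were higher and 1 lower, against 21.4% and 30.8% of rows (52.2% in all). Beside these counts, the median nuclear isodecoder of each clone lay below 0, as given above.

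Gln-CTG-7-1 lay at 1.45 normalised counts in the DUS2L wild type and at 81.0 and 109 in clones #1 and #2. The authors' deposited table gave a log2 fold change of 5.81 ± 1.13 (adjusted p = 2.15e-06) and 6.23 ± 1.13 (adjusted p = 2.30e-07), resting on very few wild-type counts. Its mean was above 10 in that table through the clones alone, so the size of the change is uncertain. The member made up 0.121% and 0.0974% of Gln-CTG in these clones. In the DUS3L table Gln-CTG-7-1 was present in wild type, at 49.0 normalised counts, and at 43.4 and 33.02 in the clones. Per 100000 nuclear normalised counts these levels were 10.4 in the wild type and 4.71 and 3.54 in the clones of the DUS3L table, against 5.07 and 4.34 in the DUS2L clones, 0.0568 in the DUS2L wild type and 0.0572, 0.154 and 0.0699 in the wild type and clones of the DUS1L table. The tables were scaled separately. The groups near 0 were thus the shared wild type and both DUS1L clones. Per 100000 nuclear normalised counts, the wild type of the DUS3L table lay above the DUS2L clones. In normalised counts it lay below them (49.0 against 81.0 and 109), so which held more of the tRNA was not shown. Relative to the DUS3L wild type and centred on the median nuclear isodecoder, the DUS2L clones stood at -1.33 and -1.38 (adjusted p = 0.203 and 0.163), so the direction turned and neither clone passed.

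Gln-CTG-4-1 went from 5406 normalised counts in wild type to 1252 and 2347 in DUS2L clones #1 and #2. The authors' deposited table listed falls of -2.11 ± 0.51 and -1.20 ± 0.51 on the log2 scale (adjusted p = 0.000179 and 0.0381). Centring on the median nuclear isodecoder ended both calls, at -1.09 and -0.65 (adjusted p = 0.0830 and 0.308), as did the wild type of the DUS3L table, given with the alternatives below. Relative to the spike-ins, clone #1 still passed (-1.84, adjusted p = 0.00121) and clone #2 did not (-0.74, adjusted p = 0.233). Gln-CTG-3-2 went from 7872 to 3714 and 4862 normalised counts. It fell in clone #1, where the authors' deposited table listed -1.08 ± 0.47 (adjusted p = 0.0403), a call that centring and the spike-ins as reference ended (-0.06 and -0.82). Clone #2 stood at -0.70 ± 0.47 (adjusted p = 0.198) per the authors' deposited table. The abundant Gln-CTG-1-1 went from 90004 to 44832 and 71690 normalised counts, with a log2 fold change of -1.01 ± 0.50 and -0.33 ± 0.50 per the authors' deposited table that passed in neither clone (adjusted p = 0.0771 and 0.607). Gln-CTG-2-1 stood at -0.52 ± 0.42 and 0.42 ± 0.42 per the authors' deposited table, and clone #2 passed after centring (0.97, adjusted p = 0.0492). The share of all isodecoder rows that passed after centring was not counted.

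Gln-TTG-2-1, which made up 93.9% of its family in DUS2L clone #2, rose there too. It went from 2389 normalised counts in wild type to 3292 and 5338. The authors' deposited table gave 0.46 ± 0.40 (adjusted p = 0.343) for clone #1 and 1.16 ± 0.40 (adjusted p = 0.0104) for clone #2. After centring, clone #1 passed as well, at 1.49 (adjusted p = 0.00101), but with the DUS3L wild type clone #2 stood at 0.78 and no longer passed (adjusted p = 0.149). Gln-TTG-3-1 and Gln-TTG-4-1 stood at -0.06 ± 0.44 and 0.94 ± 0.43 and at -0.50 ± 0.47 and 0.44 ± 0.46 per the authors' deposited table, without passing. Gln-TTG-3-1 in clone #2 passed after centring (1.49, adjusted p = 0.00192) and relative to the spike-ins (1.41, adjusted p = 0.00376). For these centred and spike-in calls the share over all rows was not counted. The remaining members that did not pass were Gln-CTG-5-1 (627, 562 and 863 normalised counts), Gln-CTG-6-1 (928, 549 and 829) and Gln-TTG-1-1 (14.7, 9.26 and 12.5). The 11 members, all with a mean of at least 10 in this table, had median log2 fold changes of -0.52 and 0.42, against -1.003 and -0.47 over 241 nuclear isodecoders.

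**Figure D3:**
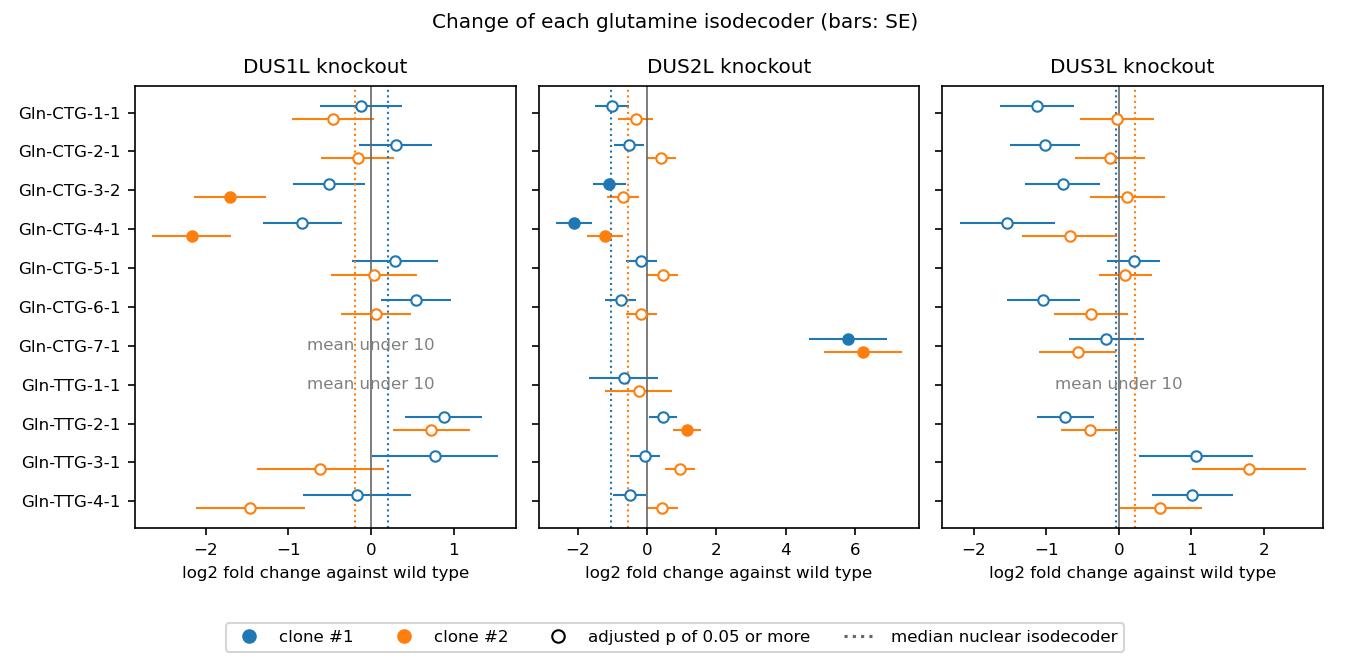
Log2 fold change against wild type, with bars for the SE, of each glutamine isodecoder with a mean of at least 10 in both clones of each knockout (each panel has its own axis). Filled points passed at an adjusted p under 0.05, and dotted lines mark the median nuclear isodecoder, which lies at -1.02 and -0.55 for DUS2L.

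In the DUS3L knockouts no glutamine isodecoder passed in either clone. In the authors' DUS3L p-values 4 of 11 had an unadjusted p under 0.05 in clone #1, all lower, and 1 in clone #2, which was higher, beside unadjusted shares of 20.9% and 19.5% over all rows. After adjustment, 2.48% of 282 rows were higher and 5.32% lower in clone #1 (7.8% in all), and 10.6% higher and 1.06% lower in clone #2 (11.7% in all), with 3.55% in both. Gln-CTG-1-1 went from 7721 normalised counts in wild type to 3528 and 7592, or -1.13 ± 0.51 and -0.02 ± 0.51 per the authors' deposited table (adjusted p = 0.172 and 0.986). Gln-CTG-2-1 stood at -1.02 ± 0.48 and -0.12 ± 0.48 and Gln-CTG-3-2 at -0.77 ± 0.52 and 0.12 ± 0.52 per the authors' deposited table. Gln-CTG-4-1 went from 270 to 93.2 and 169 normalised counts, with a log2 fold change of -1.54 ± 0.66 and -0.68 ± 0.66 per the authors' deposited table (adjusted p = 0.143 and 0.685). Of the TTG members, Gln-TTG-2-1 went from 539 to 324 and 408 normalised counts, Gln-TTG-3-1 from 10.1 to 21.2 and 35.1 and Gln-TTG-4-1 from 20.9 to 42.3 and 31.1. Gln-TTG-2-1 was thus below wild type in each clone, and Gln-TTG-3-1 and Gln-TTG-4-1 were above it. The log2 fold changes of Gln-TTG-2-1 were -0.74 ± 0.39 and -0.40 ± 0.39, and those of Gln-TTG-3-1 were 1.06 ± 0.79 and 1.79 ± 0.79, per the authors' deposited table (lowest adjusted p of these 0.140). Gln-CTG-5-1 (175, 202 and 187 normalised counts), Gln-CTG-6-1 (212, 103 and 163) and Gln-TTG-1-1 (5.07, 4.94 and 6.79) did not pass either. The 10 members with a mean of at least 10 had median log2 fold changes of -0.76 and -0.07, against -0.17 and 0.21 over 223 nuclear isodecoders. As a share of all nuclear normalised counts, glutamine tRNAs went from 2.89% to 0.727% and 1.39%, while the nuclear total went from 472232 to 921836 and 932473.

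The make-up of Gln-CTG differed between groups. The 3 entries on chromosome 1, Gln-CTG-3-2, Gln-CTG-4-1 and Gln-CTG-7-1, made up 10.2% of Gln-CTG in the wild type of the DUS1L table, 6.94% in clone #1 and 3.88% in clone #2. For DUS2L these shares were 10.4%, 7.52% and 6.55%, and for DUS3L 6.24%, 6.78% and 5.93%. The shared wild type of DUS1L and DUS2L thus had the highest share, and the 3 groups of the DUS3L table lay within 1 percentage point of each other. Gln-CTG-2-1 had a share of 18.0% in the wild type and 23.3% and 22.5% in the clones of the DUS1L table, 24.1% and 27.7% in the DUS2L clones, and 31.7%, 32.4% and 30.5% in the wild type and clones of the DUS3L table. Within the chromosome 1 entries Gln-CTG-7-1 and Gln-CTG-4-1 went opposite ways in the DUS2L table, and Gln-CTG-1-1 has gene copies on chromosomes 6, 15 and 17, so the grouping is a description. Shares of normalised counts carry no test here, since the tables give no values per library.

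**Figure D4:**
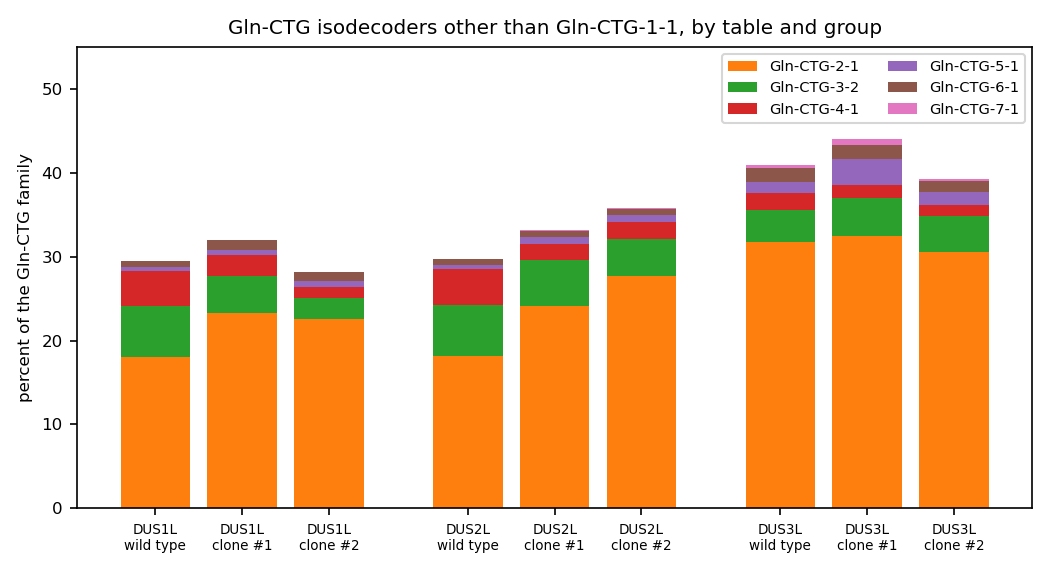
Percent of the Gln-CTG level held by each isodecoder other than Gln-CTG-1-1, which makes up the rest, in wild type and both clones of each table (stacked bars). Gln-CTG-4-1 goes from 4.17% in wild type to 2.46% and 1.30% in the DUS1L clones and from 4.22% to 1.86% and 2.10% in the DUS2L clones.

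Clones #1 and #2 of each knockout were set against each other with a normal test on the gap between their fold changes, with both SEs combined. After adjustment over the table, 0 glutamine families and 0 glutamine isodecoders differed between clones in any knockout, where 0% of DUS1L, 0.364% of DUS2L and 2.52% of DUS3L isodecoder rows did. This overstates the error, because both clones share a wild type. With the shared part left out, Gln-CTG-4-1 and Gln-CTG-3-2 were lower in DUS1L clone #2 than in clone #1, with log2 differences of -1.34 ± 0.48 (adjusted p = 0.0420) and -1.21 ± 0.44 (adjusted p = 0.0440), beside 14.5% of 275 rows in that table, 2.9% for DUS2L and 11.7% for DUS3L. Among families 0 glutamine rows differed by that reckoning either, beside 2.86%, 1.41% and 5.41% of rows.

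Glutamate and lysine, whose TTC and TTT anticodons share the wobble uridine group, were set beside glutamine. Both anticodon families of each isotype were pooled, so the values are not those of that group alone. Members with a mean of at least 10 are counted, whereas the shares over all rows have no minimum mean. For DUS2L, 0 of 7 glutamate isodecoders were higher and 3 lower in each clone, with medians of -0.69 and -0.79. Of 18 lysine isodecoders, 6 and 8 were higher and 5 lower in each clone, with medians of -0.22 and 0.25. Over the 15 lysine members with a mean of at least 100, 3 and 5 were higher and 5 lower in each clone. The medians of those 15 were -0.36 and 0.07. Over all DUS2L rows, 16.7% were higher and 37.3% lower in clone #1, and 21.4% and 30.8% in clone #2. For DUS3L, 2 of 7 glutamate isodecoders were higher and 0 lower in each clone, with medians of 0.75 and 0.61, beside medians of -0.76 and -0.07 for glutamine. Of 15 lysine isodecoders there, clone #1 had 3 that were lower and 0 that were higher, and clone #2 had 1 and 2, with medians of -0.38 and -0.02. Over all DUS3L rows, 2.48% were higher and 5.32% lower in clone #1, and 10.6% and 1.06% in clone #2. For DUS1L, 0 of 7 glutamate isodecoders were higher and 1 lower in each clone, with medians of 0.05 and -0.43. Of 14 lysine isodecoders, DUS1L clone #1 had 6 that were higher and 1 that was lower, and clone #2 had 0 and 4, with medians of -0.84 and -1.25. Over the 12 lysine members with a mean of at least 100, these medians were 0.30 and -1.18. Over all DUS1L rows, 15.6% were higher and 5.09% lower in clone #1, and 2.55% and 5.82% in clone #2. No test of glutamine against these isotypes was run.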

How the data were processed

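Small RNA libraries were made from gel-isolated tRNA, per the labels' protocols. Tools named, per the submitters' processing notes, were DESeq2, featureCounts, STAR and fastp, with the build hg38, and no version or role of any. The handling of reads that match several tRNA genes is not given in the sources used here, so near-identical isodecoders may share reads. The tables used here hold the authors' comparisons, without a value for each library. Per the file headers, each table gives a mean of normalised counts (a signal), a log2 fold change and an unadjusted p-value for clones #1 and #2 against wild type. Which clone of the labels is #1 is not said there. An adjusted p was computed from the authors' p-values.

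Computation used pandas 2.3.3 with numpy 2.4.6 under Python 3.11.15, normal quantiles from scipy 1.17.1, and matplotlib 3.10.9 for plots. Dividing each fold change by the normal quantile that its p-value implies gave the SE. Group levels follow from the deposited mean with both ratios, if each group had 3 libraries. As a check, clone #1 values were used to predict the SE of clone #2, and the median absolute log2 error was 0.00248 or less in each table over rows with a mean of at least 100. At such means the SE depends little on the group levels, so this is a weak check on them. Gln-CTG-7-1 had a lower mean in each table and was left out. The recovery steps were also run on simulated data made with the same formulas that they invert. Recovery of the levels there was fixed in advance, so that run is no check on the deposited values. Named isodecoders were the 3 of highest mean per anticodon, those that passed for each clone of a table and had a mean of 10 or more and up to 3 a table past it in 1 clone. Others are named to account for every member. Gene positions come from RefSeq. The members, lists and rules were chosen with earlier results of these data known. Alternatives were a stricter adjusted p of 0.01, a log2 fold change of at least 1, minimum means, centring on the median nuclear row, the spike-ins as reference, summed isodecoders and another wild type. The tests between knockouts, and the use of the other wild type for DUS1L, were chosen after the data were seen.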

Additional observations from a re-analysis of the deposited data

Results flagged for a closer look

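Knockouts were compared by the mean fold change of both clones, with adjustment over all isodecoders. The SE of such a difference came from the spread between libraries, so the p-value does not measure the gap between clones. For DUS2L against DUS1L the shared wild-type part was left out of the SE. Both wild types were included for the pairs with DUS3L. Members with a mean under 10 in either table were left out. Before centring such differences were common in these tables: 61.7% of rows differed between DUS2L and DUS1L and 43.2% between DUS2L and DUS3L. Those shares rest on SEs built in different ways and are not like for like. Shares of rows that differed after centring were not counted for any pair of knockouts. Gln-CTG-6-1 (chromosome 6, 27791356 to 27791427) had a mean log2 fold change of -0.46 in DUS2L and 0.30 in DUS1L, a difference of -0.76 ± 0.31 (adjusted p = 0.0247). In clones #1 and #2 it stood at -0.76 and -0.16 in DUS2L and at 0.54 and 0.06 in DUS1L. After centring the difference was -0.38 (adjusted p = 0.293), and Gln-TTG-4-1, higher in DUS2L by 1.16, was then the 1 member that differed (adjusted p = 0.00861).

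For Gln-CTG-7-1 the gap between DUS2L and DUS3L was 6.39, from mean log2 fold changes of 6.02 and -0.37. It is a description, since the tRNA reached a mean of 10 in the DUS2L table through the clones alone. The groups set against each other rest on different wild types, with 1.45 normalised counts in that of the DUS2L table and 49.0 in that of the DUS3L table. Gln-TTG-2-1 differed between DUS2L and DUS3L by 1.38 ± 0.49 (adjusted p = 0.0135), with mean log2 fold changes of 0.81 and -0.57. After centring this was 2.03 (adjusted p = 0.000145). Between DUS3L and DUS1L 0 members differed by the normal test, against 10.3% of 271 rows, and after centring Gln-TTG-2-1 did (-1.58, adjusted p = 0.0315).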

How the results depend on the processing

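The DUS2L counts of glutamine calls depended on the processing, and those of DUS3L stayed at 0. For DUS2L, 2 isodecoders passed in both clones as reported. The count was 1 at an adjusted p under 0.01 and 1 relative to the spike-ins. In each case this was Gln-CTG-7-1, at 1.45 normalised counts in wild type. With a mean of at least 100 the count was 1, which was Gln-CTG-4-1. For these 3 settings the share of all rows that passed in both clones was not counted. With the DUS3L wild type the count was 0, where 7.33% of 273 rows were higher and 8.42% lower in both clones. Of DUS2L families 0 passed in both clones as reported and 1 after centring, where the share of all rows was not counted. For DUS1L, 0 isodecoders passed in both clones, and 1 with the DUS3L wild type (Gln-CTG-7-1, lower, at DUS1L levels too low for a fold), beside 18.1% of rows higher and 19.9% lower. With shared wild-type variance left out, 2 DUS1L isodecoders differed between clones. Between DUS3L and DUS1L 0 members differed, and 1 after centring.

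Centring moved the DUS2L medians to 0.50 and 0.97, and the spike-ins moved that of clone #2 to 0.88. After centring, DUS2L Gln-CTG stood at 0.17 and 0.25 in clones #1 and #2, above 0, and Gln-TTG in clone #1 at 1.51. DUS2L Gln-CTG-1-1 then stood at 0.018 and 0.22, Gln-CTG-2-1 in clone #1 at 0.50, and Gln-TTG-3-1 and Gln-TTG-4-1 in clone #1 at 0.97 and 0.52. DUS1L Gln-CTG-2-1 in clone #2 stood at 0.027 and DUS3L Gln-CTG-3-2 in clone #2 at -0.10. Relative to the spike-ins, Gln-CTG and Gln-CTG-1-1 of DUS2L clone #2 stood at 0.27 and 0.14, Gln-TTG-3-1 of DUS2L clone #1 at 0.21, and Gln-CTG-3-2 of DUS3L clone #2 at -0.049. None of these sign changes concerned a value that had passed.

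The wild type of the DUS3L table, centred, crosses tables that were scaled separately. Against it, DUS2L Gln-CTG-7-1 turned to -1.33 and -1.38, Gln-CTG-4-1 to 0.16 and 0.59, Gln-CTG-3-2 to 0.85 and 0.76, Gln-CTG-1-1 to 0.48 and 0.69, Gln-CTG to 0.17 and 0.16 and Gln-TTG-3-1 in clone #1 to 1.26. Gln-TTG in DUS2L clone #2 stood at 0.37 (adjusted p = 0.568). None of the DUS2L glutamine calls remained, and Gln-TTG-3-1 in clone #2 passed at 1.78 (adjusted p = 0.0318). Calls fell over the whole table: 7.33% of 273 isodecoder rows were then higher and 8.42% lower in both DUS2L clones. As reported, these shares were 16.7% and 26.8% of 276 rows. Shares for a single clone were not counted against that wild type. DUS1L Gln-CTG-4-1 and Gln-CTG-3-2 stood at 0.57 and 0.55 in clone #1 and, past the threshold no longer, at -0.41 and -0.30 in clone #2. DUS1L Gln-CTG-1-1 stood at 0.52 and 0.55, Gln-CTG-2-1 in clone #1 at -0.13, Gln-TTG-3-1 in clone #2 at 0.21 and Gln-CTG in clone #1 at 0.20. Gln-TTG-4-1 in DUS1L clone #2 passed at -1.79 (adjusted p = 0.0120). In DUS1L, Gln-TTG was itself the median family of both clones and so stood at 0. The cause was not tested. No paired analysis was possible because the tables hold no values per library, and leaving out replicates could not be run for the same reason. The summed isodecoders differed from the family rows by less than 1 SE in every clone. Both hold nearly the same counts (56261.8 and 56262.9 for Gln-CTG in the DUS1L wild type), so this is no separate support for the family values.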
